A study of Rattus norvegicus with 5 samples.

Results

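Fatty acid desaturases insert a double bond into an acyl chain and elongases lengthen it, and the genes encoding these enzymes were followed on liver arrays of 2 rat strains. The members were chosen by name, with earlier results of these data known: Scd, Scd2, Fads1, Fads2, Elovl1, Elovl2, Elovl5, Elovl6 and Elovl7. Of these 9 genes, 6 had a probe set mapped to them by the platform annotation, among 7589 named genes and 8797 probe sets in all, and each of the 6 had a single probe set. Elovl1, Elovl2 and Elovl7 were not analysed here. The 6 values carried no detection filter, so all 6 measured genes entered every comparison.

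The progenitor was PD, an inbred polydactylous strain. PD.SHR4 (PD.SHR4a in the series text) is congenic to it and has a chromosome 4 segment introduced from SHR, the spontaneously hypertensive rat. SHR is deficient in the fatty acid translocase Cd36, and the series title sets the expression profiles beside glucose tolerance and metabolism. Both groups were 4-month-old males on standard chow, with no other treatment in the labels. RNA came from 8 rats per strain, but the labelled cDNA was pooled within each strain before hybridisation to 3 PD and 2 PD.SHR4 arrays, so p-values measure the spread between arrays, which may be technical, and not that between rats. Values are log2 expression after RMA, in which 1 unit is a doubling, and a level of one probe set cannot be set against that of another. In whole liver, fewer cells of a type and less RNA per cell cannot be told apart.

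In the liver, palmitate made by fatty acid synthase is lengthened to stearate by Elovl6 and desaturated to oleate by Scd, the main desaturase of saturated chains, and the products feed triglycerides, cholesteryl esters and membranes. Fads2 and Fads1 act in turn on essential polyunsaturated fatty acids, with Elovl5 lengthening the chain between them, to make arachidonic acid and its relatives. Desaturases draw electrons from cytochrome b5 and its reductase. Many of these genes are textbook targets of the transcription factor SREBP-1c, which insulin and the oxysterol receptor LXR induce and which polyunsaturated fatty acids suppress.

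Array medians lay between 5.21 and 5.38, with the highest in PD array 2, and arrays of a strain correlated at r = 0.988 to 0.994 over all probe sets, against 0.986 to 0.987 between strains. Hepatocyte markers were bright, averaging 12.3 on each array. The probe set shared by Cd36 and Cd36l1, a check of the labels, measured 7.35, 7.83 and 7.93 in PD and 4.18 and 4.85 in PD.SHR4 (log2 difference -3.19 ± 0.26 SE; limma, adjusted p = 0.0149). Of all probe sets 82, or 0.932%, passed an adjusted p of 0.05 (limma with Benjamini-Hochberg adjustment), 58 lower and 24 higher in PD.SHR4, a split of 59 and 41 after each array was centred on its median and of 65 and 47 after a further quantile normalisation. Omitting PD array 1 left 28 calls, omitting PD array 3 left 18, and omitting PD.SHR4 array 1 or 2 left 0 by limma (737 or 710 at an unadjusted p under 0.05).

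None of the measured genes lies on chromosome 4 in the rat assembly GRCr8. Scd and Scd2 are neighbouring paralogues on chromosome 1, at chr1:253218968-253232101 and chr1:253118377-253131436, and Fads1 and Fads2 form another cluster on that chromosome, at chr1:216252605-216267618 and chr1:216132277-216172190. Elovl6 lies at chr2:220738095-220845528 and Elovl5 at chr8:87671164-87737618. Whether the Scd probe set also detects Scd2 transcripts, or the reverse, was not tested.

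The RefSeq promoter windows (GRCr8, 250 bases before to 50 after the start) are shown for Scd, which had the largest strain difference, for its paralogue Scd2, for Fads1, and for Elovl5, which differed least. They lie at chr1:253231682-253231981 (minus strand), chr1:253118127-253118426 (plus strand), chr1:216252442-216252741 (plus strand) and chr8:87670914-87671213 (plus strand). Capitals mark CCAAT, the letters bound by the factor NF-Y, on either strand (ATTGG on the other).
Scd: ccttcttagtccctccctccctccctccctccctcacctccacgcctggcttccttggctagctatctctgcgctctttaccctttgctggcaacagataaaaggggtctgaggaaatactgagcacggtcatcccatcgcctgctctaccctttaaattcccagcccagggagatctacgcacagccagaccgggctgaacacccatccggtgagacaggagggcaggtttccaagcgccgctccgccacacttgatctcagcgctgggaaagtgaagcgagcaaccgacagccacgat
Scd2: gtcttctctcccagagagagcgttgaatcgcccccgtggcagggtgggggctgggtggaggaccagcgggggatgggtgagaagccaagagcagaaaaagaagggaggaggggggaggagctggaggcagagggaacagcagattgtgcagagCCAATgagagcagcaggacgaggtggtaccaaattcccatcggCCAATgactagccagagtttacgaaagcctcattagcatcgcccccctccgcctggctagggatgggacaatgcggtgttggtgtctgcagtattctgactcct
Fads1: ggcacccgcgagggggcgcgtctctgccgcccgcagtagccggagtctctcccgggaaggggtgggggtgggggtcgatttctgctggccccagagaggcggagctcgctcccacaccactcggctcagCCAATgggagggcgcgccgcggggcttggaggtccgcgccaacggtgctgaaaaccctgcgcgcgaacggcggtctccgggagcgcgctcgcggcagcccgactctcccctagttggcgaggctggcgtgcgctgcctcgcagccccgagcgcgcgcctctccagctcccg
Elovl5: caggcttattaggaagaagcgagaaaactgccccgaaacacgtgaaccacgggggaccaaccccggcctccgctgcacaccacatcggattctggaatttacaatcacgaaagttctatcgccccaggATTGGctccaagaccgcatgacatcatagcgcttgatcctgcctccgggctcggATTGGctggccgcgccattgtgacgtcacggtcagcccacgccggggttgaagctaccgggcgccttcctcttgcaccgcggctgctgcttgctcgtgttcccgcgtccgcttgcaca
CCAAT was found at -97 and -54 from the start in Scd2, at -121 in Fads1 and, on the other strand, at -122 and -68 in Elovl5, counted at the left end of each match. It was not in the Scd window, which lies wholly inside the annotated span of Scd given above. Bases upstream of the outer end of that span were not searched. Of the 6 measured genes, 5 had a window (Elovl6 had none), and 3 of those 5 held CCAAT, against 37.5% of 33469 windows of the same length. The GC box GGGCGG was in 2 of the 5 (Fads1, Fads2; 33.1% of all windows), the E-box CACGTG in 1 (Elovl5; 6.42%) and the sterol element TCACNCCAC in 0 (1.12%), each searched on both strands, and no motif overlapped another in these windows. These matches are a description of letters and not of binding.

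Scd, the stearoyl-CoA desaturase, was 20.4-fold lower in PD.SHR4 but did not pass the test over all probe sets. It measured 9.24, 11.5 and 10.4 in PD arrays 1, 2 and 3, and 6.58 and 5.47 in PD.SHR4 arrays 1 and 2. The strains did not overlap, and the lowest PD array lay 2.66 above the highest PD.SHR4 array. The log2 difference was -4.35 ± 0.68 (SE), with an unadjusted 95% interval of -6.03 to -2.67 and adjusted p = 0.0606 (limma). No other probe set of the 8797 had a larger difference in size. The arrays within each strain also differed. Scd spanned 2.26 across the PD arrays, a 4.80-fold range that ranked 32 of 8797, and 1.11 between the PD.SHR4 arrays, a span larger than that of 99.0% of probe sets. In 4 of 11 alternative settings the adjusted p was under the threshold. These were an intensity trend, a filter on dim probe sets, median centring and array weights. Of the 11, those that kept at least 2 arrays per strain gave an adjusted p of 0.00664 to 0.289 (limma). Over the 11 the log2 difference stayed between -4.92 and -3.79. With the replicate number as a block, not among the 11, the adjusted p was 0.00617 (limma), but same-numbered arrays share only a number.

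Scd2, the paralogue best known in mouse from brain and other tissues outside the adult liver, differed less. It measured 6.15, 7.47 and 7.38 in PD and 6.02 and 5.99 in PD.SHR4. PD array 1 lay 0.13 above the higher PD.SHR4 array, and the other PD arrays lay further above it. The log2 difference was -0.995 ± 0.41 (SE; adjusted p = 0.371, limma), 1.99-fold, with an unadjusted 95% interval of -2.00 to 0.0099. Without PD array 1 it was -1.42 with adjusted p = 0.0353 (limma). No other array, left out alone, brought a member past the threshold.

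**Figure D1:**
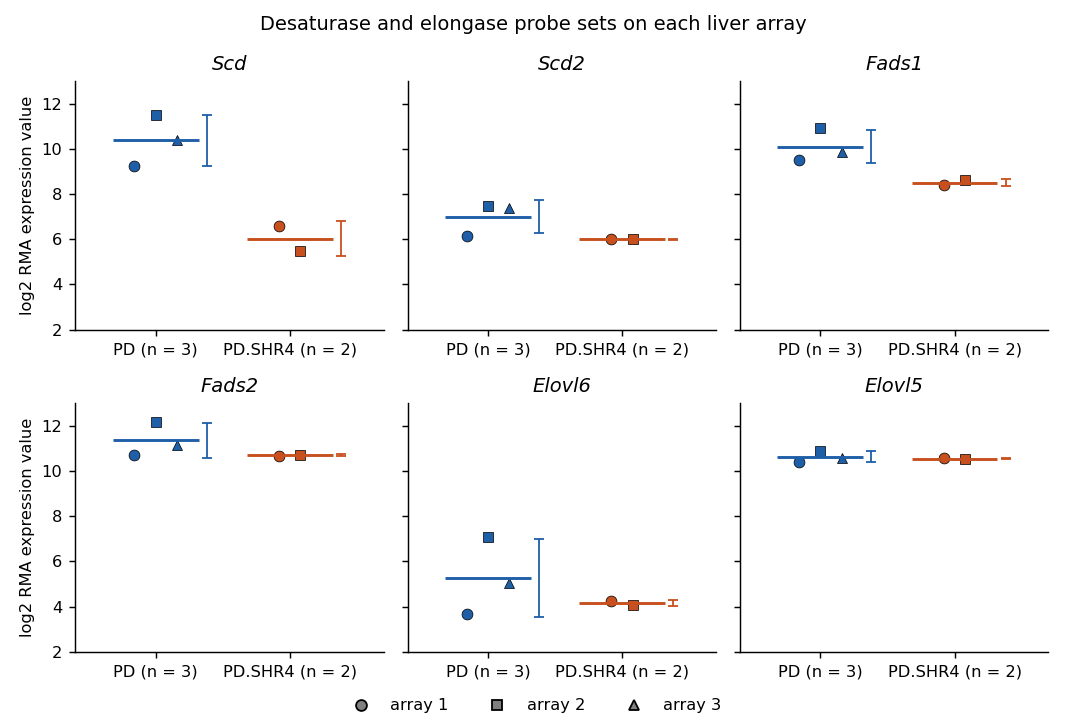
Log2 RMA expression value (vertical axis, same scale in each panel) of the 6 measured genes on each array. Symbols give the array number, horizontal bars the strain mean and error bars the SD (3 PD arrays, 2 PD.SHR4 arrays). The strains do not overlap for Scd, Scd2 and Fads1, and PD array 2 is the highest in every panel.

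Fads1, the desaturase that makes arachidonic acid in the last step of its pathway, was 3.01-fold lower and did not pass. Its values were 9.49, 10.9 and 9.87 in PD and 8.39 and 8.62 in PD.SHR4, without overlap and with a gap of 0.87. The log2 difference was -1.59 ± 0.41 (SE; adjusted p = 0.171, limma), and it ran from -1.89 to -1.18 when each array was left out in turn.

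Fads2, which carries out the initial desaturation of linoleic acid, overlapped between strains by the smallest margin. It measured 10.7, 12.2 and 11.2 in PD and 10.7 and 10.7 in PD.SHR4, where PD array 1 lay 0.0064 below the higher PD.SHR4 array. The log2 difference was -0.66 ± 0.42 (SE; adjusted p = 0.585, limma), with an unadjusted 95% interval of -1.69 to 0.36. Leaving out PD array 2, the highest, gave -0.25.

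Elovl6, which lengthens palmitate to stearate, varied more among PD arrays than between the strains. It measured 3.66, 7.10 and 5.03 in PD and 4.24 and 4.06 in PD.SHR4. PD array 1 was the lowest of all 5 and PD array 2 the highest, a 10.9-fold range within PD that ranked 4 of 8797 probe sets. The signal was dim: except on PD array 2, it lay under the median of every array, though above every lower quartile. The PD.SHR4 arrays differed by 0.18. The log2 difference was -1.11 ± 0.93 (SE; adjusted p = 0.698, limma), with an unadjusted 95% interval of -3.40 to 1.18 that includes both directions. Leaving out PD array 2 gave -0.19, and leaving out PD array 1 gave -1.91.

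Elovl5, the elongase of polyunsaturated chains, had the narrowest interval of the 6. Its values of 10.4, 10.9 and 10.6 in PD enclosed those of 10.6 and 10.5 in PD.SHR4. The log2 difference was -0.083 ± 0.17 (SE; adjusted p = 0.901, limma), with an unadjusted 95% interval of -0.50 to 0.34 that includes both directions. Its direction turned without PD array 2, to 0.054, and without PD array 1 the value was -0.19.

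**Figure D2:**
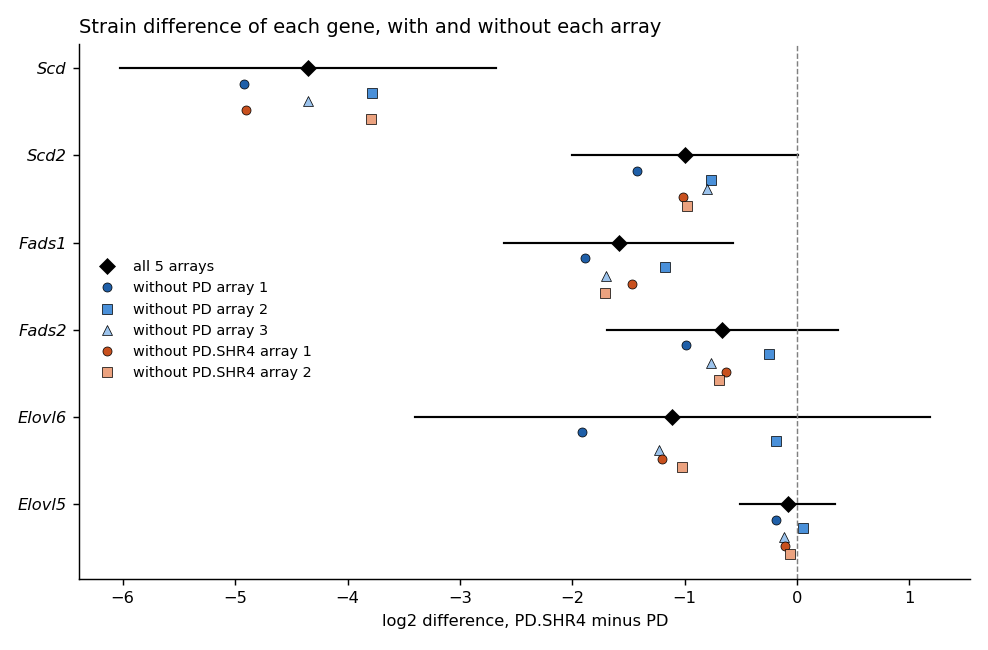
Log2 difference, PD.SHR4 minus PD, of each gene (horizontal axis) from the fit to all 5 arrays (black diamond, with its unadjusted 95% interval as a line) and with each array left out (coloured symbols). Scd stays between -4.92 and -3.79, while Elovl6 moves between -1.91 and -0.19.

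Of the 6 genes, 0 passed the test in either direction, beside 0.659% of all probe sets that passed as lower and 0.273% as higher. At an unadjusted p under 0.05 there were 2, Scd and Fads1, both lower (7.92% of all probe sets were lower at that level). The strains did not overlap, with PD.SHR4 lower, for 3 of the 6 (17.1% of all probe sets). All 6 values were below 0, as were those of 4397 of all 8797 probe sets, and the median was -1.05 against 0.0002 over all probe sets. Leaving out PD array 2 brought that median to -0.50, and leaving out PD array 1 to -1.66.

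The PD arrays were ordered alike for these genes. PD array 2 was the highest PD array and PD array 1 the lowest for 6 of 6 genes, an order shown by 32.6% of all probe sets. After each array was centred on its median, 5 of 6 kept it, against 19.2% of all probe sets; the exception was Scd2, highest in PD array 3. The median PD range was 1.45 over the 6 genes and 0.35 over all probe sets, while the median PD.SHR4 ranges were 0.12 and 0.13. A range over 3 PD arrays tends to exceed one over 2 PD.SHR4 arrays, so ranges of the strains are not compared directly. The series text describes cDNA pooled within each strain and names no difference between the PD arrays, and what set them apart was not tested.

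Set singly against the PD.SHR4 mean, the PD arrays gave different pictures of the same genes. Scd was higher by 3.22, 5.48 and 4.36 in PD arrays 1, 2 and 3, and Fads1 by 0.98, 2.41 and 1.37. For Scd2 the differences were 0.14, 1.46 and 1.38, and for Fads2 0.024, 1.499 and 0.47. Scd and Fads1 thus stood clear of the PD.SHR4 arrays on every PD array, whereas PD array 1 was near the PD.SHR4 level for Scd2 and Fads2. Elovl6 gave -0.50, 2.95 and 0.87, and Elovl5 -0.13, 0.36 and 0.017, with PD array 1 below PD.SHR4 for both. Over the 6 genes the median difference was 0.084, 1.95 and 1.12 for the 3 PD arrays, while over all probe sets it was -0.034, 0.046 and -0.0021.

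**Figure D3:**
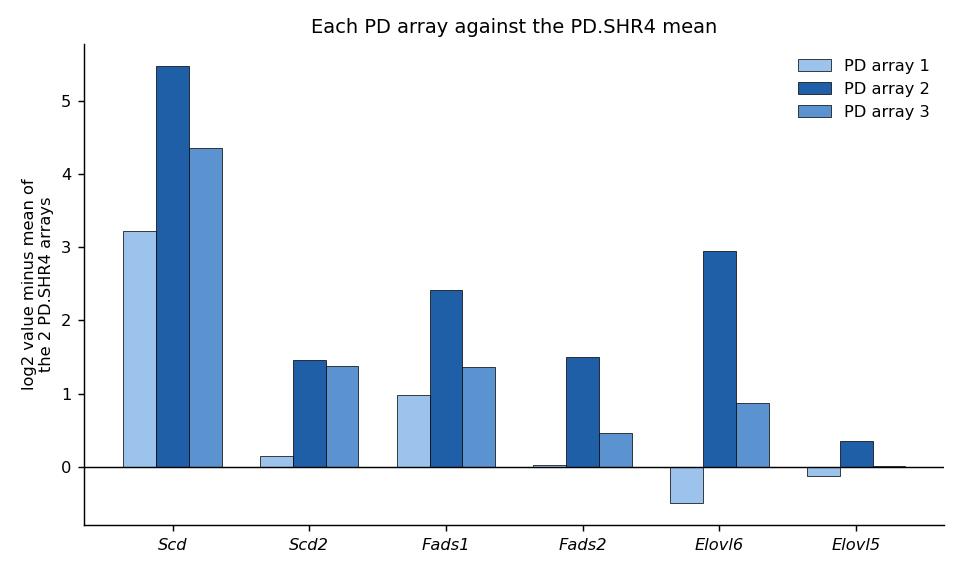
Log2 value of each gene on PD arrays 1, 2 and 3 (bars) minus the mean of the 2 PD.SHR4 arrays (0 on the vertical axis). The bar of PD array 2 is the tallest for every gene, and PD array 1 is below 0 for Elovl6 (-0.50) and Elovl5 (-0.13).

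Genes that supply palmitate or control its supply mostly had lower values in PD.SHR4, without passing the test. Of 7 measured genes, 0 rose and 0 fell, 6 had values below 0, and the median log2 difference was -0.46. The other was Mlycd (0.11 ± 0.11 SE; named after its value was seen), which breaks down malonyl-CoA. Acly, ATP citrate lyase, measured 8.49, 10.3 and 9.46 in PD and 7.82 and 7.78 in PD.SHR4 (-1.61 ± 0.50 SE; adjusted p = 0.231, limma). Acaca, acetyl-CoA carboxylase, measured -1.02 ± 0.36 (SE) and the citrate carrier Slc25a1 -0.38 ± 0.13 (SE). PD array 2 was the highest PD array for 6 of these 7 genes, against 48.2% of all probe sets.

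Of 13 measured regulators, 1 fell, 0 rose and 12 did not pass, with a median of 0.12. The gene that fell was Insig1, which retains SREBP in the endoplasmic reticulum and is itself a target of SREBP. It measured 11.3, 11.9 and 11.6 in PD and 8.87 and 8.38 in PD.SHR4 (-2.99 ± 0.25 SE; adjusted p = 0.0149, limma), and its PD arrays spanned 0.67, less than those of Scd. It did not pass without PD array 3 (adjusted p = 0.0549) or PD.SHR4 array 1 or 2 (0.103 and 0.166). Insig2 was -1.06 ± 0.20 (SE; adjusted p = 0.0855). Ppara, the fatty acid receptor PPAR-alpha, had values of 7.23, 7.71 and 6.70 in PD and 8.98 and 9.42 in PD.SHR4 (1.99 ± 0.31 SE; adjusted p = 0.0606). The LXR-alpha gene Nr1h3, named after its value was seen, differed by -0.10 ± 0.11 (SE; adjusted p = 0.787), all by limma. Srebf1, the gene of SREBP-1c, was not analysed here.

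Among 7 measured elongation-cycle partners and electron donors, 0 passed, 5 differences were below 0 and 2 above, and the median was -0.098. The outer mitochondrial cytochrome b5 Cyb5b was -0.63 ± 0.21 (SE), and the microsomal cytochrome b5 Cyb5a, the electron donor of the desaturases, was 0.20 ± 0.13 (SE), with an interval that included 0. The reductase Cyb5r2 lay under the lower quartile of every array, at 2.33 to 2.58, so its difference is not read here. Of the remaining desaturases, Fads3, beside Fads2 on chromosome 1, measured 6.01, 6.10 and 6.18 in PD and 5.50 and 5.57 in PD.SHR4 (-0.56 ± 0.12 SE; adjusted p = 0.110, limma). Fads3 thus showed no overlap and did not share the wide PD spread. Degs1, the ceramide-forming sphingolipid desaturase, was higher in both PD.SHR4 arrays, at 8.86 and 8.90 against 8.35 to 8.47 in PD (0.46 ± 0.11 SE; adjusted p = 0.152, limma).

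Of 9 measured genes that activate fatty acids or build them into lipids, 0 passed, 7 had values below 0 and the median was -0.48. Among them were Soat2, which esterifies cholesterol (-0.55 ± 0.12 SE), the acyl-CoA synthetase Acsl3 (-1.45 ± 0.33 SE) and Gpam, which starts glycerolipid synthesis (-0.98 ± 0.24 SE). Of 6 genes of peroxisomal chain shortening, 1 rose, 5 did not pass, 5 had values above 0 and the median was 0.41. The riser was Abcd2, a peroxisomal very long-chain acyl-CoA transporter, from 2.38, 2.42 and 2.63 in PD to 4.38 and 4.41 in PD.SHR4 (1.92 ± 0.13 SE; adjusted p = 0.00755, limma). Its PD values lay under the lower quartile of every array, and it did not pass without PD.SHR4 array 1 or 2 (adjusted p = 0.107 and 0.161, limma). Ehhadh, the peroxisomal bifunctional enzyme, measured 1.17 ± 0.18 (SE; adjusted p = 0.0606, limma) and Hsd17b4 0.39 ± 0.12 (SE).

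**Figure D4:**
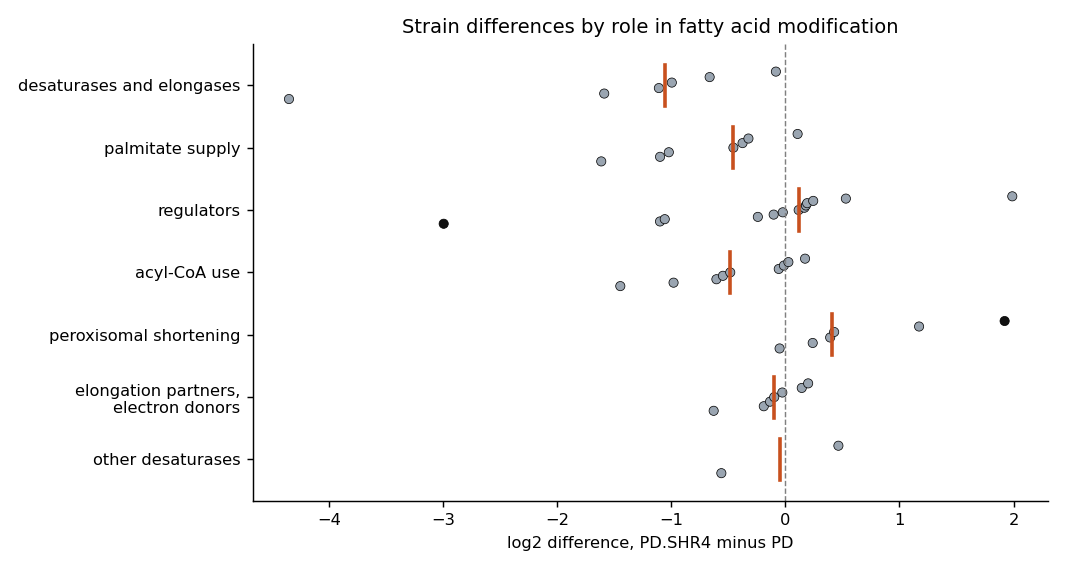
Log2 difference, PD.SHR4 minus PD (horizontal axis), of every measured gene in each group. Points are genes, black where they passed the test (Insig1 among the regulators and Abcd2 in peroxisomal shortening) and grey otherwise, and the vertical bars are group medians, -1.05 for the desaturases and elongases.

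The array profiles of Scd and Fads1 were each compared with 7583 named genes that are not members, as the root mean square difference of log2 values over the 5 arrays after each profile was centred on its own mean. Probe sets with several symbols, among them that of Cd36 and Cd36l1, were left out of the comparison. The nearest to Scd were Bmal1 (0.71), Insig1 (0.86), Slc6a6 (0.95), St8sia1 (1.02) and Apol3l1 (1.04), against a median of 2.27 over all genes compared. Bmal1, the clock activator, measured 6.81, 7.47 and 7.43 in PD and 3.73 and 3.59 in PD.SHR4, so it shared the strain difference of Scd but not its spread among PD arrays. Nearest to Fads1 were Dhcr7 (0.19), Acly (0.21), Cyp51 (0.23), Acsl3 (0.25) and Acacb (0.28), against a median of 0.91. Dhcr7, a sterol reductase, measured 8.75, 9.83 and 9.19 in PD and 7.79 and 7.61 in PD.SHR4. It was picked by nearness over these same 5 arrays, so its likeness to Fads1 in strain difference and PD order follows from that choice. Among the members, the nearest pair was Scd2 and Fads2 (0.36), and Scd lay 1.45 from Fads1, its nearest member.

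**Figure D5:**
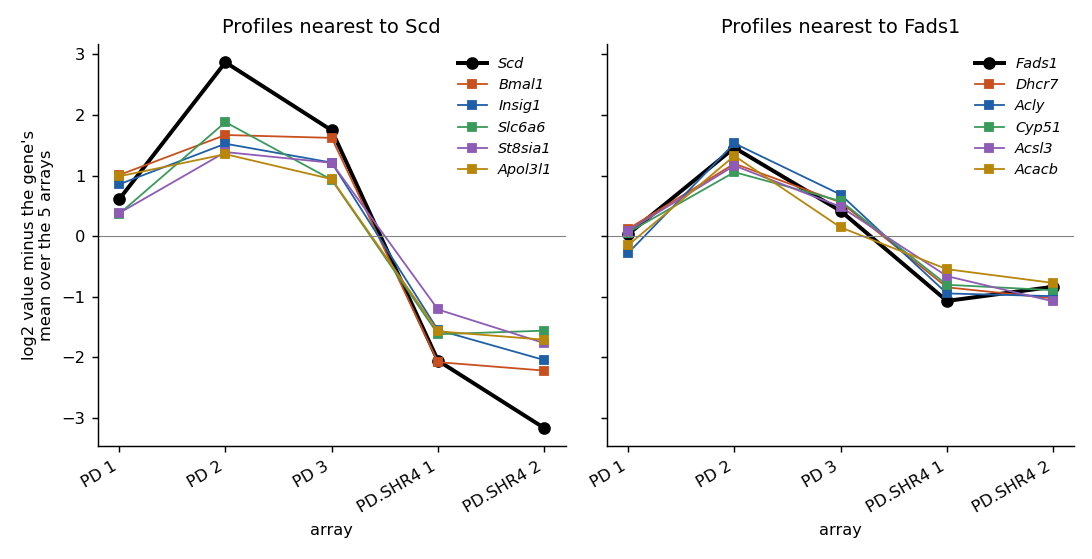
Log2 value minus the gene's mean over the 5 arrays (vertical axis) on each array (horizontal axis) for Scd and Fads1 (black) and the 5 named genes nearest to each (coloured). The genes nearest to Scd have smaller ranges than Scd itself. No probe set had a larger strain difference than Scd, so its nearest genes could only differ less. Those nearest to Fads1 follow it within 0.19 to 0.28 root mean square.

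Markers of other liver cell types were read on the same arrays. The mean level of 8 macrophage and Kupffer cell markers was 7.95 to 8.08 in PD and 7.63 to 7.65 in PD.SHR4, and that of 10 lymphocyte markers 4.84 to 5.08 and 4.34 to 4.35. No marker passed the test singly. Of the macrophage and Kupffer cell markers 7 had differences below 0 and 1 above, and of the lymphocyte markers 8 below and 2 above. The lowest p in each of these 2 lists belonged to Tyrobp (-0.80 ± 0.12 SE) and Klrk1 (-1.14 ± 0.21 SE). The part of these cells in the lower desaturase levels was not tested. Of 8 stellate cell and fibroblast markers, 5 had differences below 0 and 3 above, and Pdgfrb, with the lowest p, was at -0.48 ± 0.17 (SE). Their means were 6.18 to 6.62 in PD and 6.10 to 6.13 in PD.SHR4, highest in PD array 2. For 8 adipocyte markers they were 5.43 to 5.55 and 5.46 to 5.596 and overlapped. Of these 8, 5 had differences above 0 and 3 below, with a median of 0.041, and Retn, with the lowest p, was at -0.45 ± 0.17 (SE). Adipoq, the defining adipocyte gene, was under the lower quartile of every array at 1.93 to 2.66. The 9 hepatocyte markers had means of 12.31 to 12.33 in PD and 12.28 to 12.31 in PD.SHR4. Of these 9, 6 had differences above 0 and 3 below, with a median of 0.042, and Tat, with the lowest p, was at -0.61 ± 0.21 (SE). The differences of the 2 measured cholangiocyte markers had opposite signs, Krt19 at 0.50 ± 0.18 (SE) and Epcam at -0.23 ± 0.22 (SE; named after its value was seen), and their mean levels were 5.44 to 5.90 in PD and 5.79 to 5.85 in PD.SHR4. The 2 measured erythroid markers both had differences below 0, Hbb-b1 at -0.66 ± 0.16 (SE) and Slc4a1 at -0.22 ± 0.14 (SE; likewise named after its value was seen). Endothelial markers were not analysed here.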

How the data were processed

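Liver RNA of 3 PD and 2 PD.SHR4 arrays was measured on Affymetrix Rat Exon 1.0 ST arrays. Per the labels, the authors deposited log2 expression values that Expression Console computed by RMA (core-gene analysis), and Partek also appears in the submitters' processing notes. Software versions and the annotation release: not given in the sources used here. RMA models the background, equalises array distributions by quantiles and takes a robust summary per gene. Whether a shift of many genes left after it moved several members together was not tested. The median log2 difference of the 6 genes was -1.05 as deposited and -0.998 with each array centred on its median.

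Of 8797 probe sets, 7603 had 1 gene symbol, 409 several and 785 none. Symbols were updated through gene IDs to RefSeq (GRCr8; 7584 of 7603 matched), and the brightest probe set stood for a gene. PD.SHR4 was set against PD with limma 3.58.1 (R 4.3.3; lmFit, eBayes, two-sided, without covariates), and p-values were adjusted by Benjamini-Hochberg across all 8797 probe sets, with 0.05 as the threshold. The fit was tested on simulated data. The number of arrays limits the precision. Named genes were every member, up to 3 genes per pathway list and 1 per marker list by smallest p, and the 5 profiles nearest to Scd and to Fads1. The members and lists were chosen with earlier results of these data known. Lists got no set test.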

Additional observations from a re-analysis of the deposited data

How the results depend on the processing

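Over 12 alternatives the 6 genes kept their direction, except Elovl5 without PD array 2 (range -0.19 to 0.054 with each array left out). Each array left out gave 0 to 55 changed probe sets over the table, 0 to 1 among the 6 genes (Scd2, without PD array 1) and 0 to 2 among the 44 pathway genes, where a single PD.SHR4 array was assumed to vary like PD. The other alternatives gave, over the table, among the 6 genes and among the pathway genes: 2, 0 and 0 without variance shrinkage; 151, 1 and 4 with an intensity trend and robust shrinkage; 149, 1 and 4 (of 43 then tested) without the dimmest 25% of probe sets; 100, 1 and 4 with median centring; 112, 0 and 4 after a further quantile normalisation; and 819, 3 and 14 with array weights, which weighted PD array 3 at 4.26 and PD array 2 at 0.304. Where 1 of the 6 genes passed, it was Scd, and with weights Scd, Scd2 and Fads1. In the unaltered fit 0 of the 6 genes had passed, so adding a limit of 1.5-fold could only leave 0 there. With the replicate number as a block the counts were 163, 2 (Scd and Fads1) and 5, but same-numbered arrays share only a number: their deviations correlated at r = 0.050 and 0.082 over probe sets, for the 2 numbers present in both strains. Averaging a gene's probe sets was not run, since each of the 6 genes had 1. The median over the 6 genes was read under these settings by a choice made after the data were seen. The number of arrays, not depth, limits these values.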

Other observations

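Me1, the malic enzyme that supplies NADPH for fatty acid synthesis, was chosen after its values were seen. It measured 5.90, 8.30 and 6.77 in PD and 6.29 and 6.78 in PD.SHR4, with the same order of PD arrays as Elovl6 and PD array 1 again the lowest of all 5. Its log2 difference was -0.46 ± 0.67 (SE; adjusted p = 0.851, limma). Nr0b2, a nuclear receptor that represses bile acid synthesis, was chosen in the same way and had another order, at 7.20, 8.99 and 6.62 in PD and 7.93 and 8.34 in PD.SHR4 (0.53 ± 0.67 SE; adjusted p = 0.823, limma).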
